A study of Homo sapiens with 60 samples.

Results

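The comparison was between 2 ginger extracts at the same middle dose. A549 is an established line of human lung carcinoma (non-small cell) cells. The cells were treated for 24 h with the ethanol extract of Zingiberis Rhizoma Recens (fresh ginger) at 100 µg/mL or with that of Zingiberis Rhizoma (dried ginger) at 100 µg/mL. Its members were the 6 libraries that the labels give these treatments, 3 per extract, out of 60 in the series. The same extracts at 20 and 500 µg/mL and a DMSO vehicle, 3 libraries per group and 24 h as well, served for reference. All groups were 1 unmodified cell line, and whether the 3 libraries of a group were separate cultures is not in the labels. The p-values rest on the spread among them, part of which may be technical. The labels describe the plant material of the series as dried plants in general and do not say in what state the fresh rhizome was extracted. They give 0.1% DMSO for the vehicle samples, while the series text gives 2%.

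Ginger rhizome is known for its gingerols and for the shogaols and zingerone that form from them on drying and heating. Several plant compounds bind the aryl hydrocarbon receptor (AhR), a ligand-activated transcription factor that moves to the nucleus, pairs with ARNT and switches on the CYP1 detoxifying enzymes and its own repressors. NF-kB is the dimeric transcription factor behind many inflammatory and survival genes, and its inhibitors and chemokine targets are induced with it. A549 cells stem from the alveolar epithelium and carry a KEAP1 mutation that keeps the oxidant-response factor NRF2 active, and they are known to make fibrinogen, which is otherwise a liver protein.

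Of the marker lists the epithelial one had the highest sum, most of it from KRT8, KRT18 and KRT7. The 6 epithelial markers summed to 7370 to 8670 CPM, which are counts per M (mega) of the TMM-scaled library total, in the fresh ginger libraries and to 7120 to 7220 CPM in the dried ginger libraries, with none at 0. The 9 immune markers summed to 8.05 to 13.6 CPM with fresh and 11.5 to 11.8 CPM with dried ginger, with PTPRC, CD3E and MS4A1 at 0. CD68 averaged 8.07 CPM, CD14 1.7 CPM and ITGAM 1.18 CPM over the 6 libraries. The 8 fibroblast markers summed to 27.7 to 30.2 CPM with fresh and 29.4 to 32.6 CPM with dried ginger, with FAP at 0. COL1A1 made up most of that sum, with an average of 27.7 CPM over the 6 libraries. It stood above the epithelial markers KRT19 (20.8 CPM) and EPCAM (4.96 CPM). The 7 endothelial markers summed to at most 0.347 CPM with fresh and 0.427 CPM with dried ginger, with KDR, TEK and EMCN at 0. Library totals were 17.51 to 22.67 M counts with fresh and 21.09 to 29.22 M with dried ginger.

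Promoter letters are shown for 7 genes that differed between the extracts and that belong to 3 regulatory groups. Not every such member is shown: CYP1B1 and C3 had no promoter window available, and CXCL5 was left out. The windows are the 250 bases before the RefSeq gene start on GRCh38.p14, each written 5′ to 3′ on the strand of its gene. For the AhR targets TIPARP (chr3:156674340-156674589, plus strand) and CYP1A1 (chr15:74725529-74725778, minus strand), capitals mark the AhR core GCGTG, read on both strands.

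TIPARP: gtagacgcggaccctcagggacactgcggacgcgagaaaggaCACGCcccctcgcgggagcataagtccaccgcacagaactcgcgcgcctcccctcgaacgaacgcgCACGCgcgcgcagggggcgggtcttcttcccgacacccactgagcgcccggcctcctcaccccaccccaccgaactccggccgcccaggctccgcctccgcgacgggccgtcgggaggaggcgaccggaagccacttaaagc
CYP1A1: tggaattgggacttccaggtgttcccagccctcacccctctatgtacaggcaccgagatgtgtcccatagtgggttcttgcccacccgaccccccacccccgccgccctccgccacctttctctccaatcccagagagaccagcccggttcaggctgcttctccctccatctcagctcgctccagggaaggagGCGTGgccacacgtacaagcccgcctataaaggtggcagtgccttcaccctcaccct

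The core stood 208 and 142 bases before the TIPARP start and 57 bases before the CYP1A1 start. It is a short word and occurs in 31.9% of the 27305 promoters of the table. For the NF-kB targets BIRC3 (chr11:102317234-102317483, plus strand) and TNFAIP2 (chr14:103123211-103123460, plus strand), capitals mark the kappa-B pattern GGGNNTTCC, read on both strands.

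BIRC3: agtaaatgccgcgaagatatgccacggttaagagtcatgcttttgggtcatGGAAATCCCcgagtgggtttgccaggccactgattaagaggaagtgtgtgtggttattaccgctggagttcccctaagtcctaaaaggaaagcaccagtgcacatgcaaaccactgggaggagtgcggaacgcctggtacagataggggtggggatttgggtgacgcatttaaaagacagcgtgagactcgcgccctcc
TNFAIP2: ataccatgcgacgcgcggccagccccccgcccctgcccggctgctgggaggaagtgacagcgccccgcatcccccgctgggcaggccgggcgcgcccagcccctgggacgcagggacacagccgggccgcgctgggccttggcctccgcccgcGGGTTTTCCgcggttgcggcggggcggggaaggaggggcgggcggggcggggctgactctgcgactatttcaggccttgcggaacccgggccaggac

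This pattern stood 199 bases before the BIRC3 start and 97 bases before the TNFAIP2 start, and 5.81% of all promoters hold it. The fibrinogen genes FGA (chr4:154590743-154590992, minus strand), FGB (chr4:154562730-154562979, plus strand) and FGG (chr4:154612657-154612906, minus strand) are neighbours on chromosome 4. In their windows capitals mark 2 motifs, chosen after the letters were read: CTGGGA, the core of the interleukin-6 response element of fibrinogen genes, and GTTAAT, the half-site of the liver factor HNF1. Both were read on both strands and do not overlap.

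FGA: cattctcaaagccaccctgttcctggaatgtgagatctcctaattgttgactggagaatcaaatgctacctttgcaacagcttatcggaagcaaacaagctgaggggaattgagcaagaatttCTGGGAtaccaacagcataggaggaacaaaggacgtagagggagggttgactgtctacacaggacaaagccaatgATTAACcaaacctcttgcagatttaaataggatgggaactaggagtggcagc
FGB: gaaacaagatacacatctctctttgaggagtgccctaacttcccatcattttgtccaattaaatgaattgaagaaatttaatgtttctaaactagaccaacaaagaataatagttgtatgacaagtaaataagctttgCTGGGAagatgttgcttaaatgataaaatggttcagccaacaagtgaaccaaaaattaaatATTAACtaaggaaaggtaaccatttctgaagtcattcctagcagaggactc
FGG: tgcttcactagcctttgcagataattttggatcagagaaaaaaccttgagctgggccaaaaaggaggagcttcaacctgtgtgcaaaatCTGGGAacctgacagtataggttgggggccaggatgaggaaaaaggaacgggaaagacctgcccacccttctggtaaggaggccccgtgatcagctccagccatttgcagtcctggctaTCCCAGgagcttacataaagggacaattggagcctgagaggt

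CTGGGA stood 127 bases before the FGA start, 112 before FGB, and 161 and 42 before FGG, and 28.8% of all promoters hold it. GTTAAT stood 52 bases before the FGA start and 51 before FGB, and 6.22% of all promoters hold it. The FGG window held no match to GTTAAT. These matches are descriptions of letters and not of factor binding. Of the 80 genes that differed between the extracts, 59 had a window in the table. GCGTG was in 12 of 20 windows of genes lower with fresh ginger and in 12 of 39 windows of genes higher with it. In the same order GGGNNTTCC was in 4 of 20 and 2 of 39 of these windows, CTGGGA in 7 of 20 and 11 of 39, and GTTAAT in 0 of 20 and 5 of 39. These counts include the windows shown above. CTGGGA and GTTAAT were chosen from the letters of the fibrinogen windows, so their counts are not a test. GCGTG and GGGNNTTCC were also chosen after the data were seen, for groups with members already called. Their counts are not a test either.

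At 100 µg/mL the extracts differed in 80 of 16628 genes tested, with 48 higher and 32 lower with fresh than with dried ginger (0.289% and 0.192% of all genes). A gene was called at a Benjamini-Hochberg adjusted p under 0.05 in edgeR's quasi-likelihood test over 21 libraries. The differences were small: their median size was 0.307 on the log2 scale, and 1 gene, the tight junction claudin CLDN7 at about 1 CPM, reached 2-fold. The 3 fresh ginger libraries did not overlap the 3 dried ginger libraries for any of the 80 genes. Over all genes tested the libraries did not overlap in 12.7%, with fresh above dried ginger in 6.4% and below it in 6.34%. An unadjusted p under 0.05 was found for 1760 genes. The total of 80 moved with single libraries: it was 220 without fresh ginger library 1, and 52, 33 and 38 without dried ginger library 1, 2 and 3. In those 4 refits 70, 47, 33 and 38 of the 80 genes were called. 26 of the 80 were called whichever of the 6 libraries was left out. A fit of only the 6 libraries compared called 13 genes, all among the 80.

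AhR targets were lower with fresh than with dried ginger in 3 of 6 members tested, with none higher (median log2 difference of the list −0.466, against 0.00206 over all genes). CYP1B1 (ENSG00000138061, chromosome 2, 38066973 to 38109902, minus strand), an oestrogen- and hydrocarbon-oxidising cytochrome P450, had 77, 76.4 and 78.7 CPM in the fresh ginger libraries and 104, 110 and 113 CPM in the dried ginger libraries. The highest fresh ginger library stood well below the lowest dried ginger library. The log2 difference was −0.49 ± 0.04 (SE, n = 3 each, adjusted p = 4.71e-08), the lowest p of all genes. TIPARP (ENSG00000163659, chromosome 3, 156673235 to 156706770, plus strand), the mono-ADP-ribosyltransferase that shuts AhR signalling off, had 42.1, 40.6 and 45.2 CPM with fresh and 56.5, 58.1 and 59.1 CPM with dried ginger. It differed by −0.44 ± 0.05 (adjusted p = 8.65e-06). CYP1A1 (ENSG00000140465, chromosome 15, 74719542 to 74725610, minus strand), the most inducible CYP1 enzyme, was a low transcript with 1.48, 1.33 and 1.28 CPM in fresh and 2.25, 2.26 and 3.32 CPM in dried ginger libraries. Its difference of −0.91 ± 0.18 (adjusted p = 0.00951) was −0.72 with an adjusted p of 0.111 without dried ginger library 3, the highest of the group.

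The other AhR list members did not pass. The AhR repressor AHRR had 3.54, 2.37 and 3.63 CPM with fresh and 4.45, 4.65 and 4.98 CPM with dried ginger, a difference of −0.54 ± 0.14 (adjusted p = 0.0749). ALDH3A1, an aldehyde dehydrogenase, was at −0.01 ± 0.04 and the quinone reductase NQO1 at 0.08 ± 0.04. NQO1 is also an NRF2 target. CYP1A2 and LRAT were too low to be tested.

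Both extracts had moved CYP1B1 and TIPARP in the same direction from vehicle. Over all genes, fresh ginger at 100 µg/mL had 0.229% called higher and 0.541% lower than vehicle, and dried ginger 2.65% and 3.5%. CYP1B1 averaged 77.4 ± 1.19 CPM with fresh and 109 ± 4.48 CPM with dried ginger, against 56.6 ± 2.15 CPM in vehicle cells (SD, n = 3 each). It was higher than in vehicle by 0.45 ± 0.04 with fresh and 0.94 ± 0.04 with dried ginger on the log2 scale. TIPARP was higher than in vehicle by 0.28 ± 0.05 with fresh and 0.72 ± 0.05 with dried ginger. CYP1A1 was called against vehicle with dried ginger (1.55 ± 0.18) and not with fresh ginger (0.63 ± 0.21). The titles give the vehicle and ginger libraries the same batch name. Their sample codes begin differently, and what the codes mark is not in the labels.

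NF-kB and inflammation genes were lower with fresh ginger in 4 of 19 members tested, with none higher, and the log2 difference was negative in 18 of 19 (list median −0.197). Over all 16628 genes tested 8444 were positive. BIRC3 (ENSG00000023445, chromosome 11, 102317450 to 102339403, plus strand), an inhibitor of apoptosis, had 37.6, 37.3 and 37.5 CPM with fresh and 50, 48 and 50 CPM with dried ginger. Its log2 difference was −0.40 ± 0.05 (adjusted p = 2e-05). CXCL5 (ENSG00000163735, chromosome 4, 73995642 to 73998779, minus strand), a neutrophil-attracting chemokine, had 89.8, 88.6 and 87.3 CPM with fresh and 105, 97.3 and 103 CPM with dried ginger (−0.20 ± 0.04, adjusted p = 0.0121). Complement component C3 (ENSG00000125730, chromosome 19, 6677704 to 6730562, minus strand) had 32.6, 28.8 and 32.5 CPM with fresh and 39.1, 38.7 and 39 CPM with dried ginger (−0.31 ± 0.06, adjusted p = 0.00937). TNFAIP2, a TNF-induced membrane-tube protein that the naming rule did not pick, had 332, 314 and 324 CPM with fresh and 361, 374 and 367 CPM with dried ginger (−0.18 ± 0.04, adjusted p = 0.0193).

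In these 4 genes the fresh ginger libraries lay near the vehicle libraries. BIRC3 averaged 37.5 ± 0.163 CPM with fresh and 49.3 ± 1.18 CPM with dried ginger, against 39.8 ± 0.783 CPM in vehicle cells. C3 averaged 31.3 ± 2.14 CPM with fresh and 38.9 ± 0.189 CPM with dried ginger, against 30.8 ± 1.51 CPM in vehicle cells. Over the list, 0 of 19 members were called against vehicle with fresh ginger, where none had an unadjusted p under 0.05 either, and 6 were called higher with dried ginger. C3 was not called without fresh ginger library 2 (adjusted p = 0.0621) or dried ginger library 2 (adjusted p = 0.0557). CXCL5 was not called without dried ginger library 1 (adjusted p = 0.0839), fresh ginger library 3 (adjusted p = 0.0548) or dried ginger library 3 (adjusted p = 0.0873). 2 of the 19 members were called without dried ginger library 2 or library 3.

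Of the members not called, NFKB2, the precursor of the p52 subunit, was at −0.24 ± 0.06 (adjusted p = 0.0543), and the ubiquitin-editing inhibitor TNFAIP3 was at −0.35 ± 0.11 (adjusted p = 0.159). The chemokine CXCL8 had 1.08, 1.04 and 0.921 CPM with fresh and 2.43, 1.63 and 1.33 CPM with dried ginger (−0.82 ± 0.26, adjusted p = 0.175), and the adhesion molecule ICAM1 was at −0.83 ± 0.28 (adjusted p = 0.238). Both were low transcripts whose libraries did not overlap, with fresh below dried ginger, as in 6.34% of all genes tested. NFKBIA and NFKB1 were at −0.03 ± 0.05 and −0.05 ± 0.05, and CCL20, the member with a positive value, was at 0.52 ± 0.56. IL6, IL1B and CSF2 were too low to be tested. IRAK2, a kinase adaptor of interleukin-1 and Toll-like receptor signalling that is not on the list, had 8.69, 7.06 and 8.75 CPM with fresh and 13, 12.3 and 11.8 CPM with dried ginger (−0.59 ± 0.08, adjusted p = 0.000148).

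**Figure D1:**
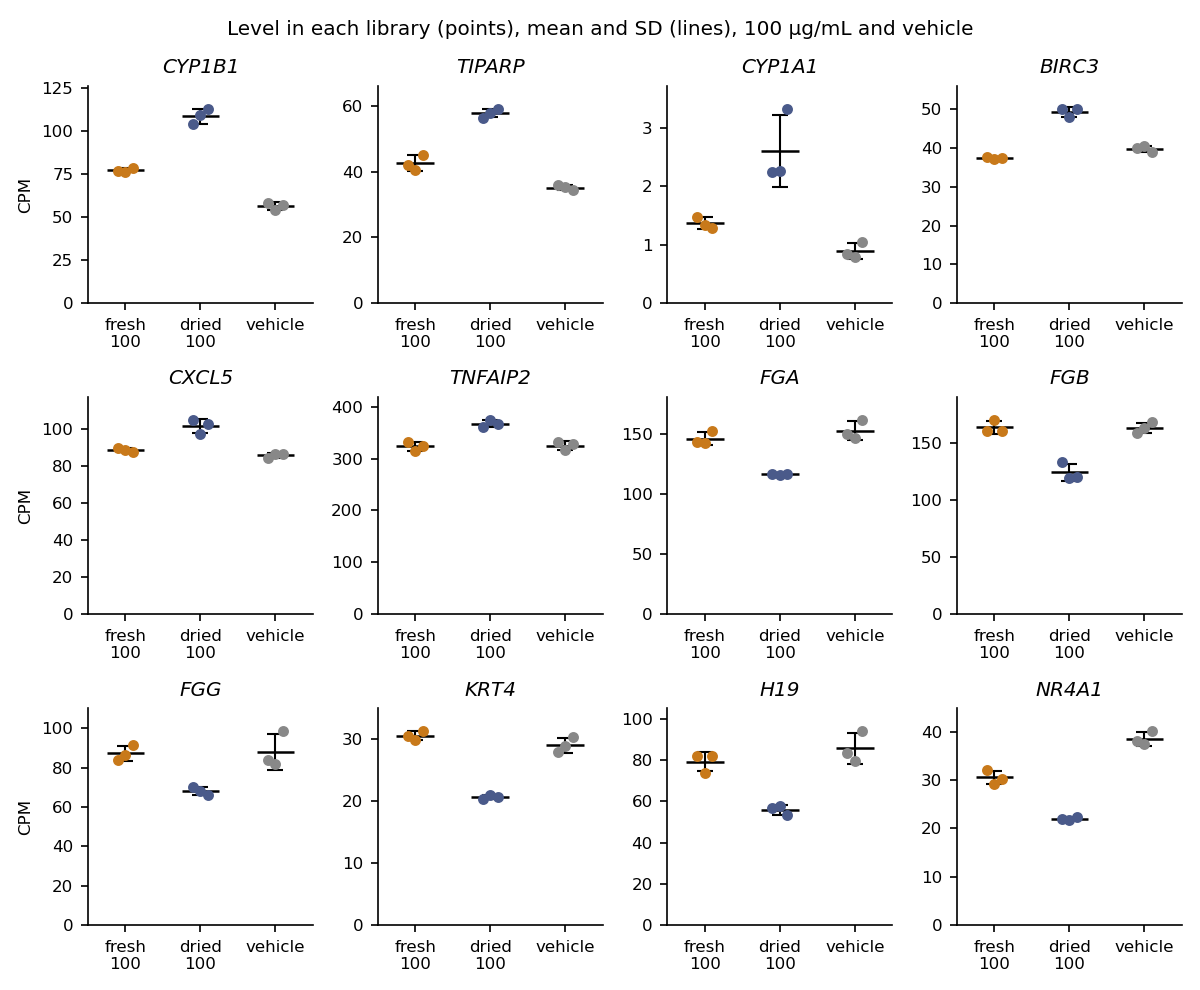
Level in CPM (vertical axis, from 0) of 12 genes in each library of fresh ginger at 100 µg/mL, dried ginger at 100 µg/mL and vehicle. Points are libraries and lines the mean and SD of 3; fresh and dried points are apart in every panel, and for FGA, FGB, FGG and KRT4 the fresh ginger points lie at the height of the vehicle points.

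The fibrinogen chains were higher with fresh than with dried ginger. FGA, FGB and FGG encode the alpha, beta and gamma chains of the clotting protein, lie within 1 cluster on chromosome 4 and were the 3 members called of 10 tested on the acute-phase list, with none lower (list median 0.264). FGB (ENSG00000171564, chromosome 4, 154562956 to 154571086, plus strand) had 161, 170 and 161 CPM with fresh and 133, 120 and 120 CPM with dried ginger (0.40 ± 0.05, adjusted p = 2.47e-05). FGA (ENSG00000171560, chromosome 4, 154583126 to 154590766, minus strand) had 144, 143 and 152 CPM with fresh and 117, 116 and 117 CPM with dried ginger (0.33 ± 0.05, adjusted p = 0.000148). FGG (ENSG00000171557, chromosome 4, 154604134 to 154612967, minus strand) had 83.7, 86.7 and 91.5 CPM with fresh and 70.1, 68 and 66.1 CPM with dried ginger (0.36 ± 0.06, adjusted p = 0.00118). All 3 were called in every one of the 14 other fits. Against vehicle the fresh ginger differences were −0.06, 0.00 and −0.01 for FGA, FGB and FGG, and the dried ginger differences were −0.39, −0.39 and −0.37. The other members differed in sign: ceruloplasmin (CP) was at 0.30 ± 0.14 and complement C5 at 0.07 ± 0.05, and the protease inhibitors SERPINA3 and SERPINA1 were at −0.90 ± 0.47 and −0.23 ± 0.36, both near 1 CPM or below.

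Among 24 NRF2 targets 2 were higher with fresh ginger and none lower, and the values were positive in 20 (list median 0.0486), or in 16 after removal of an abundance trend. Before that removal 8444 of all 16628 genes tested were positive. GPX2 (ENSG00000176153, chromosome 14, 64939152 to 64942905, minus strand), a glutathione peroxidase of epithelia, had 232, 215 and 244 CPM with fresh and 178, 179 and 189 CPM with dried ginger (0.34 ± 0.05, adjusted p = 0.00118). AKR1C1, an aldo-keto reductase, was at 0.22 ± 0.05 (adjusted p = 0.0356). It was called in 1 of the 6 fits that left out a library, the one without fresh ginger library 1, with an adjusted p up to 0.258 in the others. Its near-identical neighbour AKR1C2 was at 0.15 ± 0.04 (adjusted p = 0.107) and the paralog AKR1C3 at 0.19 ± 0.08, and the counting could share reads among them. The classical targets HMOX1 (haem oxygenase), GCLM (glutathione synthesis) and TXNRD1 (thioredoxin reductase) were at 0.01 ± 0.04, 0.01 ± 0.04 and 0.03 ± 0.04. HMOX1 had 174, 186 and 167 CPM with fresh and 172, 177 and 175 CPM with dried ginger, which overlapped. Outside the list, the glutaredoxin GLRX was higher with fresh ginger by 0.27 ± 0.05 (adjusted p = 0.00136).

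TGF-beta and mesenchymal genes had 1 higher and 3 lower members of 27 tested (list median −0.0452). The log2 difference was positive in 6 of 27, against 8444 of all 16628 genes tested. By DESeq2 0 were higher and 4 lower. LOXL2, a collagen-crosslinking oxidase, had 128, 113 and 124 CPM with fresh and 144, 154 and 146 CPM with dried ginger (−0.28 ± 0.04, adjusted p = 0.000697). GREM1 (ENSG00000166923, chromosome 15, 32717974 to 32745107, plus strand), a secreted BMP antagonist, had 6.9, 6.48 and 7.27 CPM with fresh and 10.2, 9.82 and 8.34 CPM with dried ginger (−0.46 ± 0.09, adjusted p = 0.00857). GREM1 was not called without dried ginger library 1, fresh ginger library 2 or dried ginger library 2 (adjusted p = 0.0628, 0.0523 and 0.0827). SNAI1, the transcription factor Snail, was higher with fresh ginger (0.29 ± 0.07, adjusted p = 0.0446). The list had 2 members called, both lower, without each of the 3 libraries just named. The signal transducer SMAD3, outside the list, was lower (−0.17 ± 0.04, adjusted p = 0.0399). The receptor tyrosine kinase AXL was lower as well (−0.19 ± 0.04, adjusted p = 0.0207).

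Keratin and junction genes had 1 higher and 1 lower member of 18 (list median 0.023). KRT4 (ENSG00000170477, chromosome 12, 52806549 to 52814551, minus strand), a keratin of stratified mucosa, had 30.4, 29.8 and 31.2 CPM with fresh and 20.2, 20.9 and 20.6 CPM with dried ginger. The log2 difference of 0.57 ± 0.06 (adjusted p = 6.29e-07) had the lowest p among the higher genes. The vehicle libraries had 27.9, 28.8 and 30.3 CPM, so dried ginger was the group below vehicle (−0.49 on the log2 scale) and fresh ginger was at 0.07. The claudin CLDN1, a tight junction protein, had 115, 113 and 114 CPM with fresh and 137, 135 and 131 CPM with dried ginger (−0.24 ± 0.05, adjusted p = 0.00857), and an adjusted p of 0.0557 without dried ginger library 2. Plakoglobin (JUP) was at 0.17 ± 0.04 (adjusted p = 0.0576), KRT8 at 0.17 ± 0.05 (adjusted p = 0.0805) and KRT18 at 0.18 ± 0.05 (adjusted p = 0.088), and none of the 3 passed. The list had 4 higher and 1 lower member by DESeq2.

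H19 (ENSG00000130600, chromosome 11, 1995176 to 2001470, minus strand), an imprinted noncoding RNA expressed mainly before birth, had 82.1, 73.9 and 81.9 CPM with fresh and 56.7, 57.7 and 53.2 CPM with dried ginger (0.51 ± 0.06, adjusted p = 7.73e-06). It was the 1 call among 9 imprinted genes tested. The orphan nuclear receptor NR4A1 (ENSG00000123358, chromosome 12, 52022832 to 52059507, plus strand), an immediate early gene, had 32, 29.2 and 30.2 CPM with fresh and 21.9, 21.7 and 22.3 CPM with dried ginger (0.48 ± 0.06, adjusted p = 2e-05). Both groups stood below vehicle, which averaged 38.5 ± 1.39 CPM. It was the 1 call among 17 immediate early genes tested. Among the interferon list 1 of 15 was higher, the 2-5A synthetase OAS1 (0.38 ± 0.07, adjusted p = 0.00356). Among drug metabolism and transport genes 1 of 20 was higher, the fatty acid and leukotriene hydroxylase CYP4F3 (0.27 ± 0.05, adjusted p = 0.00937).

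Where the mean reached 5 CPM, the largest differences were led upward by INSL4, an insulin-like hormone of the placenta. It had 17.5, 21.6 and 18 CPM with fresh and 13.1, 12 and 11.1 CPM with dried ginger (0.65 ± 0.09, adjusted p = 0.000148). After KRT4 came the small GTPase RHOV at 0.55 ± 0.12, the receptor adaptor ARRB1 (beta-arrestin 1) at 0.52 ± 0.09, then H19, NR4A1, the calcium-binding S100P at 0.46 ± 0.09, PRADC1 at 0.41 ± 0.09 and SLC2A3 at 0.40 ± 0.06. SLC2A3, the glucose transporter GLUT3, had 35.1, 32.9 and 33.7 CPM with fresh and 25.2, 26.8 and 25.1 CPM with dried ginger (adjusted p = 0.00018). FGB, the co-chaperone DNAJC12 (0.39 ± 0.09) and the secreted TAFA5 (0.39 ± 0.08) completed the 12. A transcript with no symbol 1.72 kb from ARRB1 was higher as well (0.72 ± 0.16), at 4.21, 3.13 and 3.58 CPM with fresh and 2.25, 2.43 and 1.94 CPM with dried ginger. Of these 12, INSL4, KRT4, ARRB1, H19, NR4A1, SLC2A3 and FGB were called whichever library was left out; ARRB1 was not called in the fit of only the 6 libraries compared (adjusted p = 0.125). RHOV, S100P and PRADC1 were called in 3 of those 6 fits, DNAJC12 in 2 and TAFA5 in 1, and the highest adjusted p without 1 library was 0.196 for RHOV, 0.0839 for S100P, 0.162 for PRADC1, 0.261 for DNAJC12 and 0.104 for TAFA5.

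The lower genes were led by BCL2L2-PABPN1 (−0.78 ± 0.15, adjusted p = 0.00937), a readthrough gene that shares exons with BCL2L2 and PABPN1, so its estimated counts are uncertain. IRAK2, CYP1B1, GREM1 and TIPARP followed. The nucleotide receptor P2RY2 was at −0.43 ± 0.10, BIRC3 at −0.40, PLEKHH1 at −0.37 ± 0.08, the zinc finger gene ZNF488 at −0.36 ± 0.08, TMEM156 at −0.36 ± 0.08, GFPT2 at −0.34 ± 0.06 and KIAA1549L at −0.33 ± 0.08. GFPT2, an enzyme of the hexosamine pathway, had 17, 16.8 and 16.1 CPM with fresh and 20.4, 20.9 and 22.1 CPM with dried ginger (adjusted p = 0.00163). IRAK2, CYP1B1, TIPARP, BIRC3 and GFPT2 were called whichever library was left out, and in the fit of only the 6 libraries compared IRAK2 and GFPT2 were not (adjusted p = 0.0614 and 0.139). P2RY2, PLEKHH1, TMEM156 and KIAA1549L were called in 1 of those 6 fits and ZNF488 in 2, and the highest adjusted p without 1 library was 0.167, 0.238, 0.146, 0.216 and 0.345 for these 5 genes in that order. BCL2L2-PABPN1 was called in 4, not without fresh ginger library 2 (adjusted p = 0.0536) or dried ginger library 2 (adjusted p = 0.0958).

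Some of the remaining genes stood beside each other in the genome or in function. TM4SF1 and TM4SF4, tetraspanin-like membrane proteins encoded 96.1 kb apart on chromosome 3, were higher with fresh ginger by 0.33 ± 0.05 and 0.34 ± 0.07, and their relative TM4SF20 on chromosome 2 by 0.29 ± 0.05. TM4SF1 had 422, 497 and 431 CPM with fresh and 367, 350 and 356 CPM with dried ginger. The G1 cyclin CCND3 had 226, 249 and 222 CPM with fresh and 193, 193 and 193 CPM with dried ginger (0.27 ± 0.04, adjusted p = 0.00118). EGLN1, the prolyl hydroxylase that marks HIF for degradation, was higher by 0.18 ± 0.04. Epiregulin (EREG), an EGF receptor ligand 366 kb from CXCL5, was lower by 0.18 on the log2 scale (SE 0.04), and the ubiquitin ligase NEDD4 was at −0.23 ± 0.04. These genes, and CLDN7, TNFAIP2, GLRX, SNAI1, SMAD3, AXL, OAS1, CYP4F3, LGSN and RPS13, were chosen after their values were seen. TM4SF1, TM4SF20, CCND3, NEDD4, GLRX, OAS1 and LGSN were called whichever of the 6 libraries was left out and in 13 of 14 alternatives in all, and CYP4F3 was not called without dried ginger library 3. TNFAIP2 and RPS13 were called in 3 of those 6 fits, not without fresh ginger library 2 or dried ginger library 2 or 3. EREG and EGLN1 were called in 2 of them, and TM4SF4, SMAD3, AXL, SNAI1, CLDN7 and the transcript beside ARRB1 in 1.

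Set against vehicle, it was mostly the dried ginger group that stood apart in the 80 genes. Dried ginger at 100 µg/mL had 1022 genes called against vehicle (6.15% of 16628, 440 higher and 582 lower) and fresh ginger 128 (0.77%, 38 higher and 90 lower); the 2 comparisons share the 3 vehicle libraries. Of the 80 genes, 66 were called in the dried and 8 in the fresh comparison. The 61 called with dried ginger alone differed between the extracts themselves by the rule that chose them. In 5 genes both extracts were called against vehicle: CYP1B1, TIPARP and GREM1 were higher in both, and NR4A1 and TM4SF4 were lower in both. The other 3 of the 8, AXL among them, were called with fresh ginger alone, all lower than vehicle. For the 48 genes higher with fresh than dried ginger, the median log2 difference from vehicle was −0.0111 with fresh and −0.321 with dried ginger. For the 32 lower genes it was −0.000213 with fresh and 0.264 with dried ginger. The fresh comparison rested on its libraries: its total was 600 without fresh ginger library 2, 81 without library 1 and 71 without library 3. It was 52 when vehicle library 1 was left out and 76 for vehicle library 2. The dried comparison's total of 1022 was 417 to 936 without any 1 library, 417 of them without vehicle library 3.

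At 20 µg/mL edgeR called 0 genes between the extracts, with an unadjusted p under 0.05 for 469 and 2 called by DESeq2. Of the 80 genes 68 had the same sign as at 100 µg/mL, and 27 of those had an unadjusted p under 0.05. None had one in the other direction. H19 at 20 µg/mL averaged 106 ± 3.6 CPM with fresh and 86.4 CPM with dried ginger (0.30 on the log2 scale, unadjusted p = 5.25e-06). The difference at 100 minus that at 20 µg/mL passed the test in 1 gene of 16628 (0.00601%), CYP1B1, at −0.35 (adjusted p = 0.0359). That call was lost without library 2 or 3 of either extract at 100 µg/mL, any fresh ginger library at 20 µg/mL, or dried ginger library 1 or 2 at 20 µg/mL, and the total ran from 0 to 4 genes over all fits without 1 library.

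At 500 µg/mL the extracts differed in 3745 genes (22.5%), 1874 higher and 1871 lower with fresh ginger (11.3% each). Of the 80 genes 75 kept their sign, 71 of them were called in the same direction, none was called in the opposite one, and 57 had a larger difference than at 100 µg/mL. The median log2 difference of the 48 higher genes was 0.0747, 0.317 and 0.441 at 20, 100 and 500 µg/mL. That of the 32 lower genes was −0.078, −0.299 and −0.469. The members were chosen at 100 µg/mL, so their median at that dose follows from the choice. LGSN, S100P, RPS13, DNAJC12 and ZNF488 had the other sign at 500 µg/mL and did not pass there. The change in the difference between 100 and 500 µg/mL was tested as well, a comparison added after the data were seen. It passed in 1352 genes (8.13%, 4.13% upward and 4.01% downward), and in 40 of the 80: in 33 the difference was larger at 500 µg/mL and in 7 smaller or opposite.

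**Figure D2:**
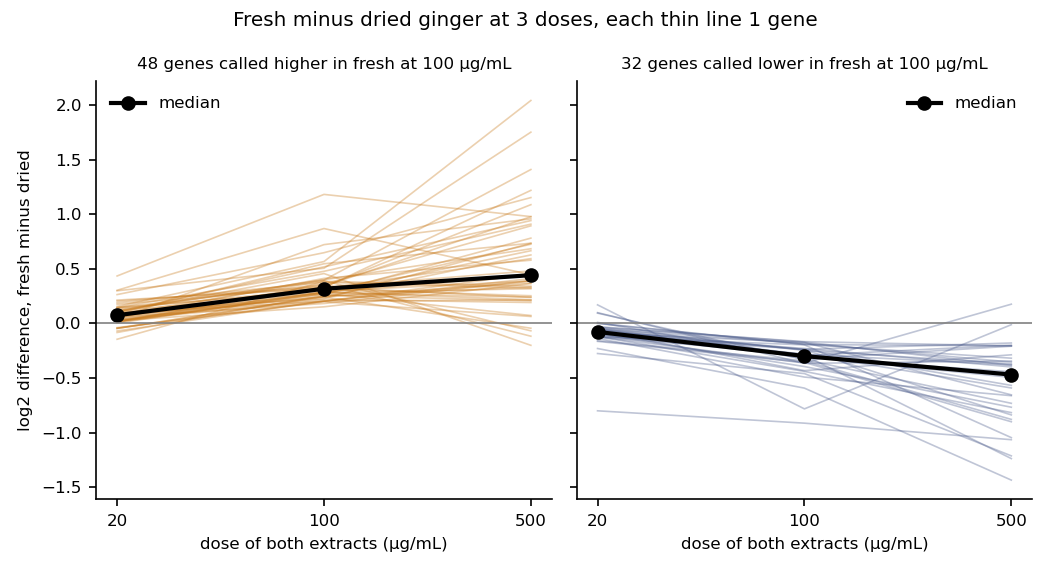
Log2 difference, fresh minus dried ginger (vertical axis), at 20, 100 and 500 µg/mL of both extracts (horizontal axis) for the 48 genes called higher and the 32 called lower at 100 µg/mL. Thin lines are genes and the black line is their median. It runs from 0.0747 to 0.441 for the higher and from −0.078 to −0.469 for the lower genes. The difference was larger at 500 than at 100 µg/mL in 32 of the 48 higher and 25 of the 32 lower genes, and smaller or opposite in the rest.

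Levels were also followed along the dose series. CYP1B1 in vehicle cells averaged 56.6 CPM, and at 20, 100 and 500 µg/mL it averaged 67, 77.4 and 125 CPM with fresh and 73.7, 109 and 198 CPM with dried ginger. FGB in vehicle cells averaged 164 CPM, and along the same doses 185, 164 and 122 CPM with fresh and 170, 124 and 45.8 CPM with dried ginger. H19 in vehicle cells averaged 85.7 CPM, and along the doses 106, 79.3 and 48.3 CPM with fresh and 86.4, 55.9 and 14.4 CPM with dried ginger. For several genes the fresh ginger mean at 500 µg/mL stood near the dried ginger mean at 100 µg/mL, 2 doses that differ and were not tested against each other. TIPARP averaged 59.7 ± 1.06 CPM with fresh ginger at 500 µg/mL and 57.9 ± 1.3 CPM with dried ginger at 100 µg/mL. FGA averaged 110 ± 6.24 and 117 ± 0.425 CPM in these groups, CYP1A1 2.62 ± 0.172 and 2.61 ± 0.616 CPM, and GFPT2 21.2 ± 0.419 and 21.1 ± 0.872 CPM. These genes are examples picked by no set rule, and other genes stood further apart. In the same order of groups, CYP1B1 averaged 125 and 109 CPM and TM4SF20 93.5 and 70.3 CPM. S100P averaged 21.3 and 14.9 CPM, and STC2 54.9 and 37 CPM. How many genes match in this way was not counted.

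**Figure D3:**
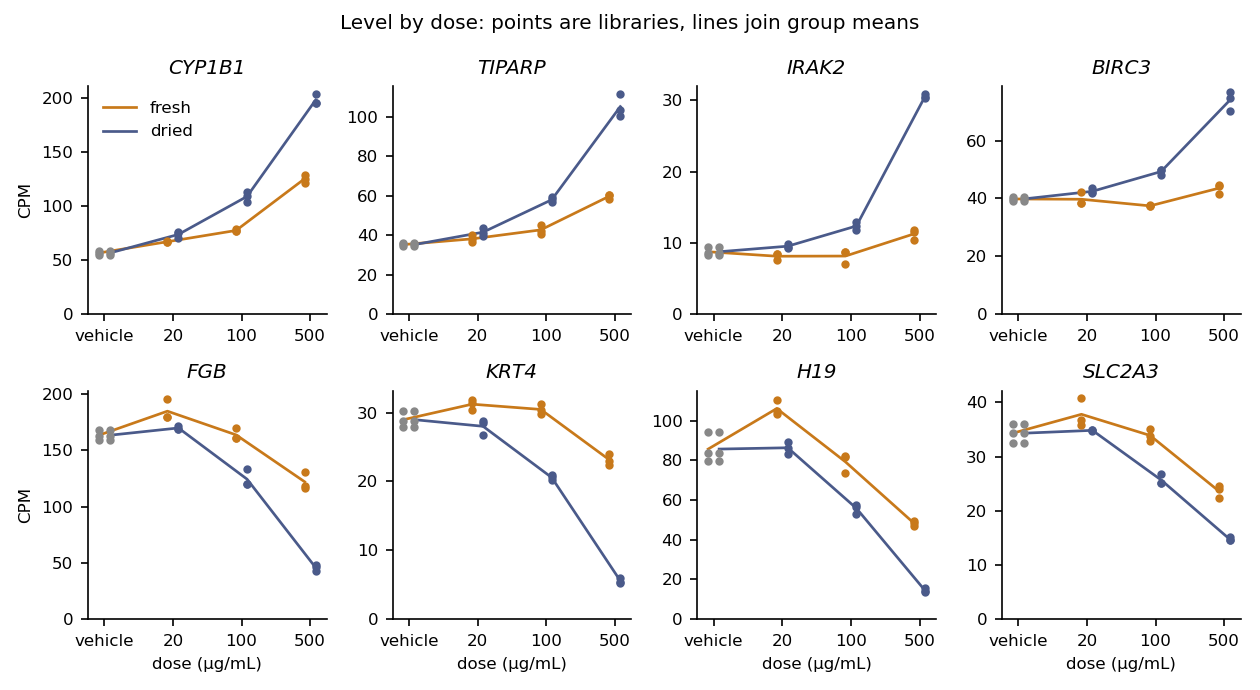
Level in CPM (vertical axis, from 0) of 8 genes in vehicle cells and at 20, 100 and 500 µg/mL (horizontal axis) of fresh and dried ginger. Points are libraries and lines join group means; the dried ginger mean at 100 µg/mL is away from the vehicle mean in all 8 panels and ends at 500 µg/mL above fresh ginger for CYP1B1, TIPARP, IRAK2 and BIRC3 and below it for FGB, KRT4, H19 and SLC2A3.

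Gene groups that set the extracts apart at 500 µg/mL had few or no calls at 100 µg/mL. All 30 mitosis genes were higher with fresh ginger at 500 µg/mL, and 0 of 30 were called at 100 µg/mL by edgeR or DESeq2 (3 with an unadjusted p under 0.05, list median 0.00214). Cyclin B1 (CCNB1) had 214, 227 and 223 CPM with fresh and 217, 213 and 213 CPM with dried ginger at 100 µg/mL. Of 31 genes of the ATF4 amino acid response, the transcription programme of amino acid shortage, 26 were lower with fresh ginger at 500 µg/mL. At 100 µg/mL 0 of these 31 were called by edgeR and 1 by DESeq2, 2 had an unadjusted p under 0.05 upward and 8 downward, and the list median was −0.0483. STC2, a stress-induced glycoprotein, had 32.7, 25.5 and 33.5 CPM with fresh and 34.9, 38.9 and 37.2 CPM with dried ginger (−0.27 ± 0.07, adjusted p = 0.0648). NIBAN1 was at −0.28 ± 0.09, the pseudokinase TRIB3 at −0.05 ± 0.06 and DDIT3 (CHOP) at 0.19 ± 0.08, and none of the 3 passed.

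Cholesterol synthesis had 22 of 26 genes higher with fresh ginger at 500 µg/mL and 0 called at 100 µg/mL by edgeR or DESeq2 (3 upward and 1 downward with an unadjusted p under 0.05). HMGCS1, the synthase at the start of that pathway, had 197, 192 and 204 CPM with fresh and 203, 204 and 204 CPM with dried ginger at 100 µg/mL. Cytosolic heat shock genes had 18 of 20 higher at 500 µg/mL and 0 called at 100 µg/mL by either tool (3 with an unadjusted p under 0.05). NF-kB genes had all 19 lower at 500 µg/mL and the 4 of 19 given above at 100 µg/mL. The change in the difference between 100 and 500 µg/mL passed in 29 of 30 mitosis genes, 23 of 31 ATF4 genes, 17 of 26 cholesterol genes, 14 of 20 heat shock genes with 1 the other way, and 10 of 19 NF-kB genes. It passed in 1 of 6 AhR targets and 4 of 10 acute-phase genes. The ER chaperone HSPA5 (0.06 ± 0.04), the p21 gene CDKN1A (0.07 ± 0.04) and the metallothionein MT1X (0.20 ± 0.13) did not pass at 100 µg/mL.

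**Figure D4:**
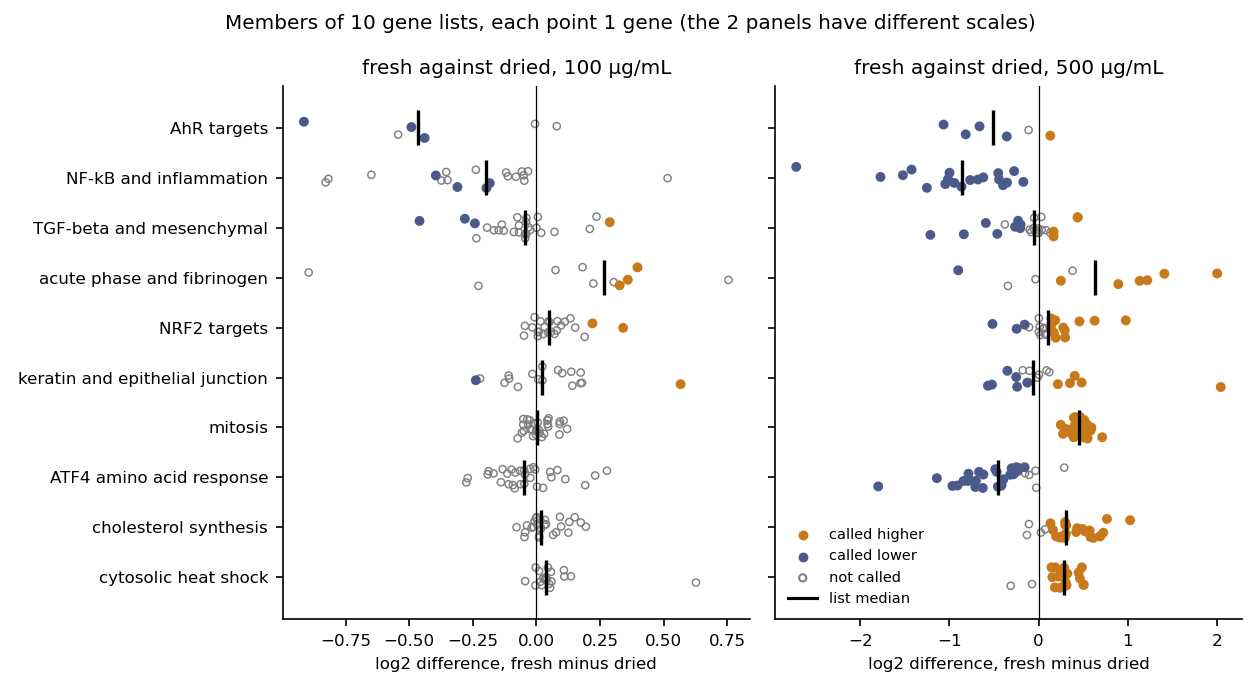
Log2 difference, fresh minus dried ginger (horizontal axes, of different scale), of the tested members of 10 gene lists at 100 µg/mL (left) and 500 µg/mL (right). Filled points were called and open points not, and bars are list medians; at 100 µg/mL mitosis, ATF4, cholesterol and heat shock lists have 0 filled points, against 30, 26, 22 and 18 at 500 µg/mL.

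Ribosomal protein and respiratory chain lists had no member called between the extracts at 100 µg/mL. Against vehicle, dried ginger at that dose had 8 of 35 ribosomal and 10 of 31 respiratory chain genes called lower (3.5% of all genes). Fresh ginger had 0 and 1 called lower (0.541% of all genes). Of 35 cytosolic ribosomal protein genes 34 had positive log2 differences at 100 µg/mL with a median of 0.102, 12 had an unadjusted p under 0.05, and 0 were called by edgeR or DESeq2. Over all 16628 genes tested 8444 were positive, and 946 had an unadjusted p under 0.05 upward in edgeR. At 500 µg/mL 0 of the 35 ribosomal genes were positive (median −0.107) and 6 were called lower by edgeR, against 11.3% of all genes. The respiratory chain genes had 22 of 31 positive there, with 7 called higher. At 100 µg/mL the summed level of the 35 ribosomal genes was 26700, 27200 and 31800 CPM in the fresh ginger libraries. It was 26300, 26500 and 27200 CPM in the dried ginger libraries, which overlapped. RPS13, a small-subunit protein that was not on the list, was called (0.24 ± 0.05, adjusted p = 0.0147), and its highest value of 561 CPM was in fresh ginger library 2. Of 31 nuclear-encoded respiratory chain genes 30 were positive (median 0.0894), 10 had an unadjusted p under 0.05 and 0 were called by either tool. The 15 genes of the mitochondrial genome tested had 2 positive values, none with an unadjusted p under 0.05 and none called by either tool, and their sum ran over 89700, 91800 and 111000 CPM with fresh and 95700, 114000 and 114000 CPM with dried ginger. The part of these sums in the calls above was not tested.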

How the data were processed

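Paired reads of 100 bp came from strand-specific libraries, per the labels' protocols. Reads were processed with FastQC 0.11.9, Trim Galore 0.6.5, STAR 2.7.3a and RSEM 1.3.3 on hg38 (GRCh38), per the submitters' processing notes; the release of its annotation is not given in the sources used here. RSEM counts were deposited: the table holds the authors' RSEM expected counts for 60675 gene IDs, not normalised, of which 24.35% of the non-zero values analysed were not whole; they were rounded. Of its 269 value columns 209 were not used. Estimated counts can split reads between paralogs and overlapping genes. Symbols were paired for 56558 IDs, and positions are those of GENCODE 29.

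Genes were filtered with filterByExpr of edgeR 4.0.16 (minimum count 10) and scaled by TMM. A robust quasi-likelihood fit in R 4.3.3 held 21 libraries in 7 groups (both gingers at 3 doses and vehicle, 14 residual degrees of freedom), and p-values were adjusted by Benjamini-Hochberg over 16628 genes per comparison. CPM errors are SDs between libraries and log2 errors SEs of the fit. Replicate libraries differed by more than counting noise (chi-square per gene of 2.47 to 12.6 between libraries of a group), so none were duplicates. Library totals of 17.51 to 38.54 M (mega) counts set the precision.

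Genes were named by a rule: per direction the 12 largest log2 differences among called genes that averaged 5 CPM or more and whose libraries did not overlap, up to 3 members of lowest p of each list with 2 or more calls, and 18 followed genes. It named 46, of which 1, and 1 other called gene, are not reported here. The 32 lists and the members were chosen with earlier results of these data known. The comparison of 500 with 100 µg/mL and the promoter motifs were chosen after the data were seen. The test was checked on simulated counts drawn independently for each gene and library. That check does not cover shifts shared by many genes of 1 library. Alternatives were DESeq2 1.42.0, other size factors, filters, fits and trend removal, a replicate block, and leaving out each library.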

Additional observations from a re-analysis of the deposited data

Results flagged for a closer look

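The differences between the extracts that themselves changed with dose, by a test of the change, are given here as values. From 20 to 100 µg/mL the fresh minus dried log2 difference of CYP1B1 changed by −0.354 (adjusted p = 0.0359, edgeR). That call was lost in 9 of 12 fits without 1 library and in 1 of the 8 other alternatives, the fit of only the groups compared.

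From 100 to 500 µg/mL, a comparison chosen after seeing the data, the difference of these named genes changed by the log2 values that follow, each past the same test. Among genes higher with fresh ginger at 100 µg/mL, KRT4 changed by 1.475, H19 by 1.246, FGB by 1.013, FGA by 0.891, GPX2 by 0.637, FGG by 0.534, INSL4 by 0.504, NR4A1 by 0.432 and SLC2A3 by 0.284, all towards a larger difference. S100P at −0.657 and DNAJC12 at −0.458 moved the other way. Among genes lower with fresh ginger, CXCL5 changed by −0.849, IRAK2 by −0.842, GREM1 by −0.753, TMEM156 by −0.543, GFPT2 by −0.536, KIAA1549L by −0.399, TIPARP by −0.377, BIRC3 by −0.372, CLDN1 by −0.330 and LOXL2 by −0.310. BCL2L2-PABPN1 at 0.771 and ZNF488 at 0.539 moved the other way.

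Among the followed genes that were not called at 100 µg/mL, NIBAN1 changed by −1.521, DDIT3 by −0.984, STC2 by −0.869, TRIB3 by −0.861, CDKN1A by −0.373 and HSPA5 by −0.219. MT1X changed by 0.964, HMGCS1 by 0.732 and CCNB1 by 0.495. DDIT3, CDKN1A and HSPA5 had positive differences at 100 µg/mL, none past the test, and negative ones past the test at 500 µg/mL.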

How the results depend on the processing

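The direction of every named gene that was called held in all 14 alternatives (13 for CYP1A1, which averaged too little for the filter at 5 CPM), and 12 of the 80 genes were called in each of them: INSL4, KRT4, H19, NR4A1, SLC2A3, FGB, CYP1B1, TIPARP, BIRC3, GPX2, FGA and FGG. Of 475 refits of named called genes 391 kept the call and 84 lost it. Between the extracts at 100 µg/mL the total of 80 was 245 with no filter on low counts, 254 in a fit of all 60 libraries, 122 by DESeq2, 13 with only the 6 libraries compared, and 33 to 220 without 1 library. Against vehicle at 100 µg/mL the fresh ginger total of 128 was 299, 462, 214 and 4 under the first 4 of these settings and 52 to 600 without 1 library. The dried ginger total of 1022 was 1800 in a fit of all 60 libraries and 417 to 936 without 1 library. At 20 µg/mL the total of 0 was 13 with no filter, 1 with all 60 libraries, 2 by DESeq2 and 4 with only the groups compared. The change from 20 to 100 µg/mL, 1 gene, was 25 with no filter, 4 with all 60 libraries, 5 by DESeq2, 0 with only the groups compared and 0 to 4 without 1 library. The cause of these moves was not tested; a fit of 6 libraries has fewer residual degrees of freedom. The totals at 500 µg/mL and for the change from 100 to 500 µg/mL stayed within 1.5 times under all alternatives run.

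Whether the replicate numbers pair the libraries is not in the labels. The deviations of same-numbered fresh and dried ginger libraries at the middle dose correlated at −0.0358, −0.00351 and 0.085 over genes. Not every library correlated best with its own number. So few correlations, from the middle dose only, cannot decide whether the libraries were paired. With the number as a replicate block the total between the extracts was 122 genes and that of fresh ginger against vehicle 232. Both were above the totals without the block. Sequencing depth limits low transcripts such as CYP1A1, CXCL8 and CLDN7.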
